A study of Bos taurus with 40 samples.

Results

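The effect of cyclic stretch on undrugged airway muscle was read by comparing bovine tracheal smooth muscle strips oscillated in length with strips of the same animals held still, all in physiological salt solution. The samples were those whose titles give saline with or without stretch, which is 20 of the 40 labelled samples of the series and 10 of its 20 RNA samples. The 5 stretched RNA samples came from strips driven through a sinusoidal oscillation of 10% of muscle length at 1 Hz, and the 5 unstretched RNA samples from strips held without oscillation. Each of 5 animals gave a strip to each state, and a Cy3 and a Cy5 labelling were made from each RNA. The other 20 labelled samples are strips kept in 1 µM carbachol, an agonist of muscarinic receptors, with or without stretch. For the oscillation experiments, strips had first been loaded to 12 g and left to equilibrate for 1 h. The tracheae were slaughterhouse material, and the muscle layer was cut out with its adventitia and mucosa. Whether these 2 layers were removed afterwards is not known here. Neither the age of the animals nor the length of the treatment is stated.

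Airway smooth muscle lies in the airway wall and is lengthened and shortened by every breath. Force reaches its cells through integrins, which tie the extracellular matrix to the cytoskeleton, and is passed on by kinases such as the protein kinase C family and the MAP kinase cascade. Protein kinase C epsilon, encoded by PRKCE, is activated by diacylglycerol without calcium and is known in smooth muscle for its part in sustained contraction. BRAF is a kinase near the top of the ERK branch of the MAP kinase cascade, and ITGA6, ITGA9 and ITGA11 encode alpha subunits of integrins.

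Expression was read on custom 2-colour oligonucleotide arrays of 1040 spots, printed as 520 neighbouring pairs. The saline samples lay on 17 arrays, which held values for 334 to 575 spots, and the median intensity of their channels ran from 1285 to 3588 with stretch and from 1213 to 6042.5 without. A pair was tested where each of the 4 treatments was measured in 3 or more animals, which 190 pairs met and 330 did not. Of these, 6 carried a gene name and 184 are known here only by their spot numbers, and 118 had all 10 saline RNA samples. Levels are given as log2 intensity after normalization, and a change is the stretched minus the unstretched level, so that a change of 1 is a doubling. In 1 array each, stretched and unstretched saline muscle of animal 2 and of animal 3 were hybridised together. In animals 1, 4 and 5 the change could be read only between arrays. The labels do not say whether the strips differed in their makeup, and in tissue strips fewer cells of a type and less RNA per cell cannot be told apart.

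Stretch in saline raised 4 of the 190 features, PRKCE and 3 unnamed spot pairs, and lowered none (limma, adjusted p threshold 0.05, 2.11% called). Foreign control transcripts had been added, and no source used here says whether any unnamed pair reads one of them. With no adjustment, 19 features had a limma p under 0.05 (10%), of which 13 were higher and 6 lower with stretch. Over all features the median change was 0.000799, with quartiles of -0.16 and 0.13, and 95 features lay on each side of 0. The change was smaller than 0.25 in either direction in 140 features (73.7%). Only 5 features (2.63%) changed by more than 1, all of them upward. The 95% interval lay within -1 and 1 in 179 features (94.2%), so a doubling or a halving lay outside the interval of most tested features. The median half-width of these intervals, which are not adjusted for the number of tests, was 0.36. Smaller changes than that were in general not detectable with 5 animals, and larger ones could also miss the adjusted threshold. Spots 735 and 736, for example, changed by 0.72 ± 0.218 (SE) without passing (adjusted p = 0.130 in limma).

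**Figure D1:**
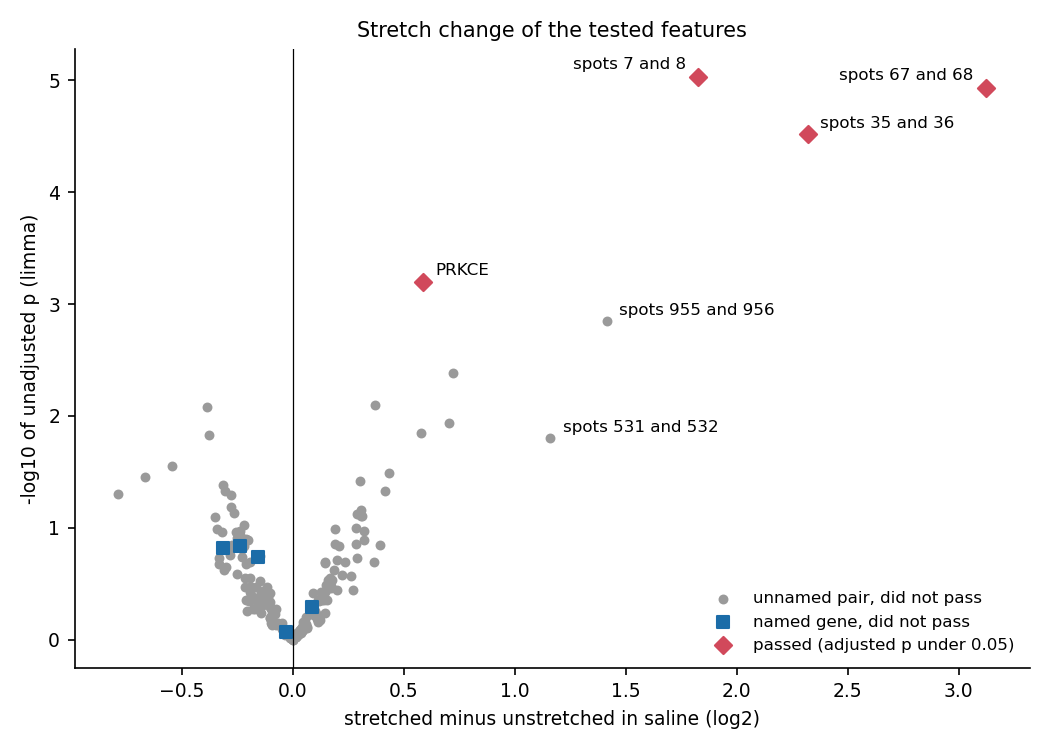
Each point is 1 of the 190 tested features, with its stretch change in saline on the log2 scale (horizontal) and the -log10 of its unadjusted limma p (vertical); red diamonds passed an adjusted p of 0.05 and blue squares are named genes that did not. The 3 unnamed pairs that passed stand at 1.83, 2.32 and 3.13, followed by spots 955 and 956 at 1.41 and spots 531 and 532 at 1.16, which did not pass, while PRKCE passed with a change of 0.59.

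PRKCE was the 1 named gene that rose. Its probe (gene identifier 507041, spots 727 and 728) read 10.57, 10.16, 10.32, 10.93 and 11.04 in the unstretched strips of animals 1 to 5, and 11.74, 10.74, 10.89, 11.29 and 11.30 in their stretched strips. Every animal was higher with stretch, but the groups overlapped, since the stretched strips of animals 2 and 3 read below the unstretched strips of animals 4 and 5. The change by animal was 1.17, 0.58, 0.57, 0.36 and 0.26. Animal 1 showed the largest of the 5 changes and animals 4 and 5 the smallest. The fitted change was 0.59 ± 0.140 (SE, 95% interval 0.29 to 0.88), a fold of 1.50, with an adjusted p of 0.0300 in limma.

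The labellings of PRKCE differed more than the printed spots did. Taken from the differences between duplicates, the SD of a single spot was 0.131. Taken from the differences between both labellings of an RNA, the SD of a single labelling was 0.492. From Cy3 alone the change averaged 0.68 and was upward in 5 of 5 animals, and from Cy5 alone it averaged 0.49 and was upward in 4 of 5, with -0.03 in animal 2. On the shared array of animal 2 stretched muscle exceeded unstretched muscle by 0.28, and on that of animal 3 by 0.22. Both readings were upward and less than the 0.58 and 0.57 that these animals gave over both labellings. Without animal 1 the change was 0.44 and its adjusted p 0.211 in limma, and without animal 2, 3 or 4 the adjusted p was 0.0852, 0.120 and 0.0530. The call was also lost without the pairing by animal (adjusted p = 0.691 in limma), and in all in 15 of 25 alternative settings, over which the change stayed between 0.31 and 0.77 and the adjusted p ran from 0.0110 to 0.691.

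The largest rise was that of spots 67 and 68. Unstretched strips of animals 1 to 5 read 12.52, 10.88, 11.86, 12.08 and 13.05, and stretched strips 15.36, 14.63, 15.57, 15.00 and 15.45. The lowest stretched strip lay above the highest unstretched strip by more than 1. The change by animal was 2.84, 3.75, 3.71, 2.92 and 2.41, and the fitted change 3.13 ± 0.512 (SE, adjusted p = 0.00112 in limma), a fold of 8.73 with a 95% interval of 4.13 to 18.5. Raw intensities of this pair ran from 1632 to 31531 in unstretched channels and from 15907 to 57584 in stretched ones. All of them lay below 65535, the upper limit of a 16-bit scanner, although the bit depth is not stated. The change was between 1.27 and 4.05 in Cy3 and between 2.74 and 4.37 in Cy5. On the shared arrays of animals 2 and 3 the pair was higher in stretched muscle by 4.60 and 3.67, the largest value of any tested feature on either array.

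Spots 35 and 36 read 12.08, 10.74, 11.74, 11.08 and 11.98 without stretch and 14.34, 13.36, 13.78, 13.64 and 14.10 with stretch. No stretched strip reached down to an unstretched one, and the rise was of like size in all animals, at 2.25, 2.62, 2.04, 2.57 and 2.12. The SD of these changes was 0.262, against 0.586 for spots 67 and 68. The fitted change was 2.32 ± 0.413 (SE, adjusted p = 0.00193 in limma), a fold of 5.00 (95% interval 2.73 to 9.14). The mean rise was 2.31 over animals 1 to 3 and 2.34 over the other two, whose arrays formed a separate set. On the shared arrays the differences were 3.47 for animal 2 and 2.77 for animal 3. The SD of a single spot, taken from the duplicates of this pair, was 0.359, the widest among the pairs described here that had duplicate readings.

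Spots 7 and 8 read 10.16, 9.77, 10.11 and 10.42 in the unstretched strips of animals 1, 2, 3 and 5, the strip of animal 4 having a Cy3 value but no Cy5 value. Stretched strips of animals 1 to 5 read 12.33, 11.68, 12.05, 11.61 and 11.95. All stretched levels lay above all unstretched levels, and the change in the 4 paired animals was 2.17, 1.90, 1.94 and 1.53. The fitted change, which also draws on the unpaired strip and on the carbachol strips, was 1.83 ± 0.279 (SE, adjusted p = 0.00112 in limma), a fold of 3.55 (95% interval 2.35 to 5.36). The change averaged 1.55 from Cy3 and 2.17 from Cy5. On the shared arrays it was 2.30 for animal 2 and 1.63 for animal 3.

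**Figure D2:**
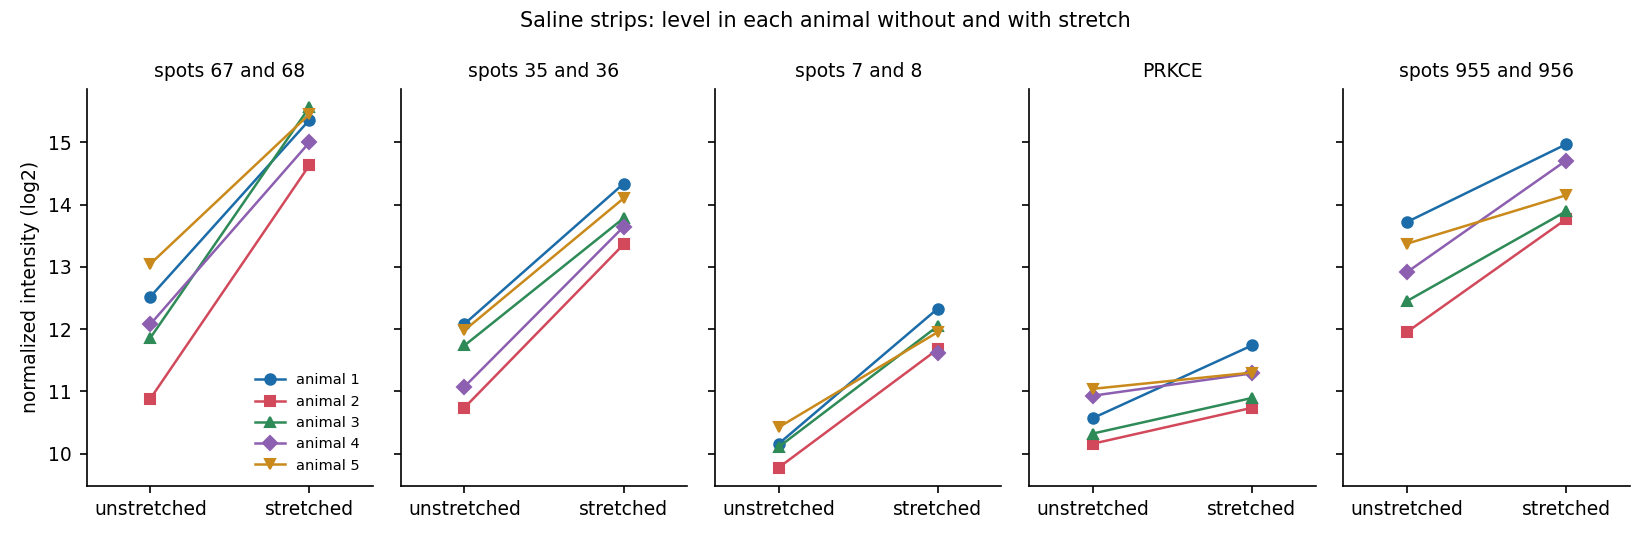
Normalized log2 intensity (vertical) of the 4 features that passed and of spots 955 and 956, which did not, in unstretched and stretched saline strips, with 1 line per animal. All lines rise; the levels do not overlap in the unnamed pairs and overlap in PRKCE, and the unstretched strip of animal 4 has no value for spots 7 and 8.

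A further 2 pairs changed by more than 1 without passing. Spots 955 and 956 read 13.72, 11.95, 12.45, 12.91 and 13.37 without stretch and 14.97, 13.77, 13.89, 14.71 and 14.15 with stretch, levels that did not overlap. The change by animal was 1.25, 1.81, 1.44, 1.79 and 0.78, and the fitted change 1.41 ± 0.372 (SE) had an adjusted p of 0.0541 in limma. It passed when animal 2 was left out (0.0348) and when the saline samples were fitted without the carbachol samples (1.04e-04). In all it passed in 9 of 25 alternatives, over which its change ran from 1.24 to 1.57. On the shared arrays it was higher by 2.58 in animal 2 and by 1.56 in animal 3.

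Spots 531 and 532 were singled out after their values were seen. They read 11.43, 11.99, 11.86, 11.24 and 12.93 without stretch and 13.33, 12.39, 13.09, 13.17 and 13.26 with stretch. Every animal was higher with stretch, yet unevenly, with changes of 1.90, 0.39, 1.24, 1.93 and 0.33. The unstretched strip of animal 5 lay above the stretched strip of animal 2. The fitted change was 1.16 ± 0.432 (SE, adjusted p = 0.248 in limma). The pair passed in 2 of 25 alternatives, the saline samples fitted alone (adjusted p = 0.0129 in limma) and the fit of single channels (0.0334), and the adjusted p ran up to 0.592. On the shared arrays it was 1.19 for animal 2 and 1.68 for animal 3.

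The 3 arrays that held both saline states gave a reading of the same contrast free of differences between arrays. On the array of animal 2, 184 features had a value, their median difference was 0.00863, 5 exceeded 1 and 1, spots 575 and 576, lay below -1 at -1.33. On the array of animal 3 there were 186, with a median of -0.00366, 5 above 1 and 0 below -1. The 5 raised features were the same on both arrays, spots 67 and 68, 35 and 36, 7 and 8, 955 and 956, and 531 and 532, and they are also the 5 features with a fitted change above 1. These arrays are part of the fitted values, and stretched muscle was in Cy5 on both. The other array set stretched muscle of animal 3, in Cy3, against unstretched muscle of animal 1, so that it also holds the difference between these animals. There, 7 of 189 features exceeded 1 and 2 lay below -1. Spots 67 and 68 were higher by 3.26, spots 7 and 8 by 2.02, spots 35 and 36 by 1.59, spots 531 and 532 by 1.35, PRKCE by 0.43 and spots 955 and 956 by 0.28. The others above 1 were spots 243 and 244 at 1.32, spots 393 and 394 at 1.30 and spots 785 and 786 at 1.12. Of spots 243 and 244 only 1 had a value in these channels. Those below -1 were spots 1025 and 1026 at -1.96 and spots 1027 and 1028 at -1.37. Pairs given here for a single array were named after their values were seen.

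Lower levels with stretch were smaller and none passed (0 of 190 in limma; smallest adjusted p = 0.199). Spots 127 and 128 read 11.95, 12.00, 12.21, 12.21 and 11.65 without stretch and 11.52, 11.66, 11.94, 11.44 and 11.52 with stretch. This pair was lower in 5 of 5 animals, with changes from -0.77 to -0.13 and a fitted change of -0.39 ± 0.129 (SE). The other unnamed pairs with the smallest p on this side were spots 547 and 548 at -0.38 ± 0.138, spots 319 and 320 at -0.55 ± 0.227, spots 819 and 820 at -0.67 ± 0.281 and spots 355 and 356 at -0.32 ± 0.144 (SE). Spots 819 and 820 had a level from both dyes in both states in 3 animals only. Their stretched levels of 12.46, 11.98 and 12.25 stood against 13.04, 13.07 and 12.48. In Cy5 alone the pair was higher with stretch in animal 4, at 12.24 against 11.63. It was lower in animal 5, at 11.63 against 12.25.

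Among unnamed pairs that were higher without passing, the smallest p after spots 955 and 956 belonged to spots 735 and 736, 243 and 244, 785 and 786, and 833 and 834. Their changes were 0.72 ± 0.218, 0.37 ± 0.123, 0.70 ± 0.231 and 0.58 ± 0.201 (SE), with adjusted p between 0.130 and 0.248 in limma. In no saline channel did both spots 243 and 244 have a value, so their levels rest on single spots. Spots 735 and 736 rested most on animal 2, with changes of 0.84, 1.66, 0.23, 0.61 and 0.29 in animals 1 to 5. Spots 785 and 786 and spots 833 and 834 had a level from both dyes in both states in animals 1 to 3 only. In Cy5 alone, spots 833 and 834 were lower with stretch in animal 4, at 12.15 against 13.03. They were higher in animal 5, at 11.96 against 11.84. Of the features tested, 6 had all stretched levels above all unstretched levels (3.16%) and 2 had them all below (1.05%). These 2 were spots 819 and 820 and, named only for this count after its values were seen, spots 569 and 570 at -0.25 ± 0.152 (SE). Readings in a single dye did not enter this count. All paired animals were higher in 15 features (7.89%) and lower in 20 (10.5%). Among the 118 features with 5 paired animals, 9 were higher in every animal (7.63%) and 8 lower in every animal (6.78%), so that a shared direction alone was about as frequent on both sides.

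The integrin alpha subunits did not pass. ITGA9, a subunit that binds matrix proteins such as tenascin, read 10.20, 10.76, 10.72, 10.94 and 10.97 without stretch and 10.26, 11.15, 10.83, 10.96 and 10.85 with stretch. Its change of 0.09 ± 0.130 (SE, 95% interval -0.19 to 0.36) was within the spread of the animals. ITGA6, a subunit of laminin receptors, read 10.08, 10.53, 10.25 and 11.20 without stretch in animals 1, 2, 3 and 5, and 9.60, 10.58, 10.30, 11.21 and 11.47 with stretch in animals 1 to 5. The fitted change was -0.03 ± 0.166 (SE, 95% interval -0.38 to 0.32). ITGA11, a subunit of a collagen receptor, read 9.92, 10.59, 10.49, 10.44 and 10.55 without stretch and 9.19, 10.63, 10.29, 10.16 and 10.52 with stretch. Its change of -0.24 ± 0.158 (SE, 95% interval -0.57 to 0.09) was widest in animal 1, at -0.73. The intervals of all 3 subunits exclude a doubling and a halving, but they are intervals of the mean of both dyes. The dyes gave changes of opposite sign in 3 of 5 animals for ITGA9, 3 of 4 for ITGA6 and 4 of 5 for ITGA11.

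BRAF read 10.82, 11.67, 11.59, 10.83 and 11.12 without stretch and 9.80, 11.39, 11.03, 10.89 and 11.33 with stretch. The change was -1.01, -0.27 and -0.56 in animals 1 to 3, and 0.06 and 0.20 in animals 4 and 5. The fitted change was -0.32 ± 0.211 (SE, adjusted p = 0.588 in limma), with a 95% interval of -0.76 to 0.13. The dyes gave the same sign in animal 1 only, and opposite signs in the other 4 animals. From Cy3 the change in animals 2 to 5 was 0.29, -1.47, -0.79 and -0.26, and from Cy5 it was -0.84, 0.35, 0.91 and 0.67. RPL28, a protein of the large ribosomal subunit, read 11.37, 11.26, 11.45, 11.73 and 10.86 without stretch and 11.25, 11.08, 11.48, 11.23 and 10.84 with stretch. Its change was -0.16 ± 0.115 (SE, 95% interval -0.40 to 0.08). Among the named genes its levels were read most alike by both labellings, with an SD of a single labelling of 0.186. For its change, however, the dyes gave opposite signs in 3 of 5 animals.

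**Figure D3:**
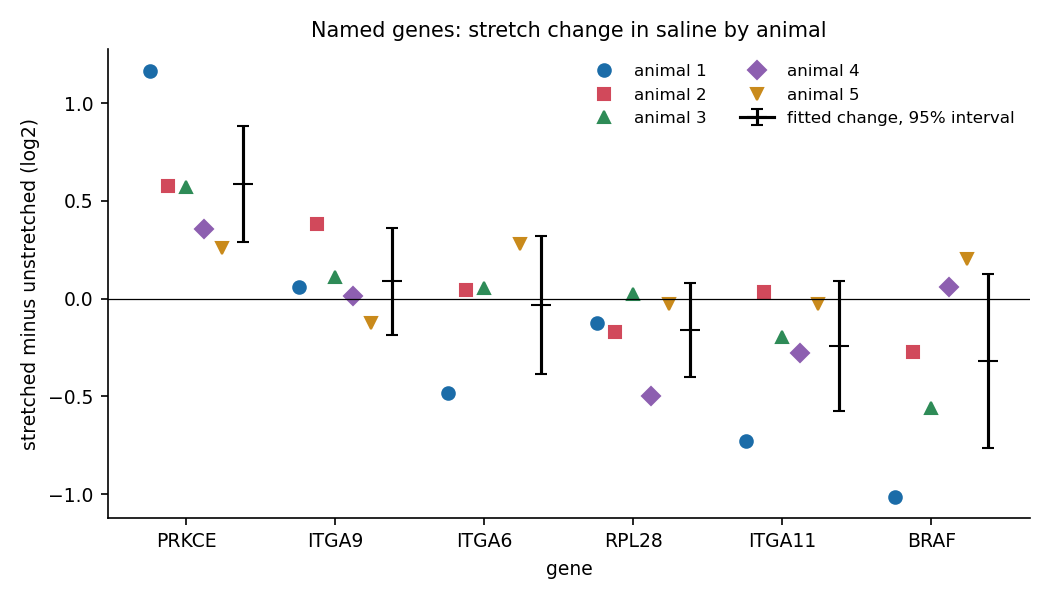
Stretch change in saline (log2, vertical) of the 6 named genes that were tested, with a marker for each animal and, in black, the fitted change with its 95% interval. All 5 animals lie above 0 for PRKCE, and the interval crosses 0 in the other genes; BRAF is lower in animals 1 to 3 and slightly higher in animals 4 and 5.

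Few genes of the pathways that sense stretch could be read. Of 21 listed genes of protein kinase C and G protein-coupled receptor signalling, 2 were named on the array and 1, PRKCE, was tested and rose. The other was PRKAR1A, a regulatory subunit of protein kinase A. PRKAR1A had a value in both dyes in 2 unstretched strips, 9.75 in animal 1 and 9.72 in animal 3. The stretched strips of these animals read 9.56 and 9.94, and the gene was not tested. Of 23 listed genes of focal adhesions and integrins, 5 were named and 3 tested, of which 0 passed, with a median change of -0.03 beside 0.000799 over all features. Of 18 listed genes of MAP kinase and related signalling, 3 were named and 1, BRAF, was tested. For MAP3K5, PAK3, ITCH, XPO7, ANAPC1, ACTN3 and CAV2, 0 saline RNA samples had a value in both dyes. None of the listed cytokine genes and none of the markers of smooth muscle, epithelium, fibroblasts, endothelium, leukocytes and cartilage carried a name on the array, so neither the inflammatory genes nor the cell makeup of the strips is described here.

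As a description, the change of 1 animal correlated across features with that of another at 0.188 to 0.648, with a mean of 0.476 over 10 pairs of animals. Without the 4 features that passed, which were chosen by the same changes, the range was -0.206 to 0.391 and the mean 0.156. Animals that share arrays also share array errors, and features are not independent replicates. Across all features the SD of the change between animals had a median of 0.335. The SD of a single labelling, taken from the difference between both labellings of an RNA, had a median of 0.338. These are unlike measures, since the first describes a difference of levels and the second a single reading. Animal 1 had a median change of -0.131, against medians between -0.00741 and 0.0468 in the other animals.

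Arrays 1 to 12 carried animals 1 to 3, and arrays 13 to 20 carried the other two. The difference in stretch change between these array sets passed in 0 of 118 features with complete values (limma), and 10 had an unadjusted p under 0.05 (8.47%). Spots 67 and 68 had a mean change of 3.43 in animals 1 to 3 and of 2.66 in animals 4 and 5, and spots 955 and 956 had 1.50 and 1.29. For PRKCE the means were 0.77 and 0.31, a difference of -0.46 ± 0.284 (SE, 95% interval -1.07 to 0.15, adjusted p = 0.553 in limma). For BRAF they were -0.62 and 0.13, a difference of 0.75 ± 0.383 (SE, adjusted p = 0.532 in limma).

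The same stretch in carbachol provides the nearest comparison, with separate strips of the same animals. It raised 2 of 190 features (1.05%), spots 7 and 8 by 1.93 ± 0.279 and PRKCE by 0.67 ± 0.140 (SE), which had both passed in saline. The difference between the drug states passed in 0 of 190 features (limma), with 9 at an unadjusted p under 0.05 (4.74%). For PRKCE the change in carbachol exceeded that in saline by 0.08, with a 95% interval of -0.34 to 0.50, and for spots 7 and 8 by 0.10, with an interval of -0.77 to 0.96. Spots 67 and 68 changed by 1.94 ± 0.512 (SE) in carbachol and did not pass there. Their difference from saline was -1.18, with an interval of -2.71 to 0.34, and is therefore not shown. The smallest p for the difference was that of spots 319 and 320. This pair was lower in saline at -0.55 ± 0.227 and higher in carbachol at 0.61 ± 0.227 (SE). Its difference was 1.15, with an adjusted p of 0.423 in limma. In saline the dyes gave opposite signs for this pair in 4 of 5 animals. Saline and carbachol strips shared arrays, so errors of an array enter both changes. In animals 4 and 5, saline stretched and carbachol unstretched muscle shared arrays, and saline unstretched and carbachol stretched muscle shared the others. There, an array error enters the saline and the carbachol change with opposite signs.

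**Figure D4:**
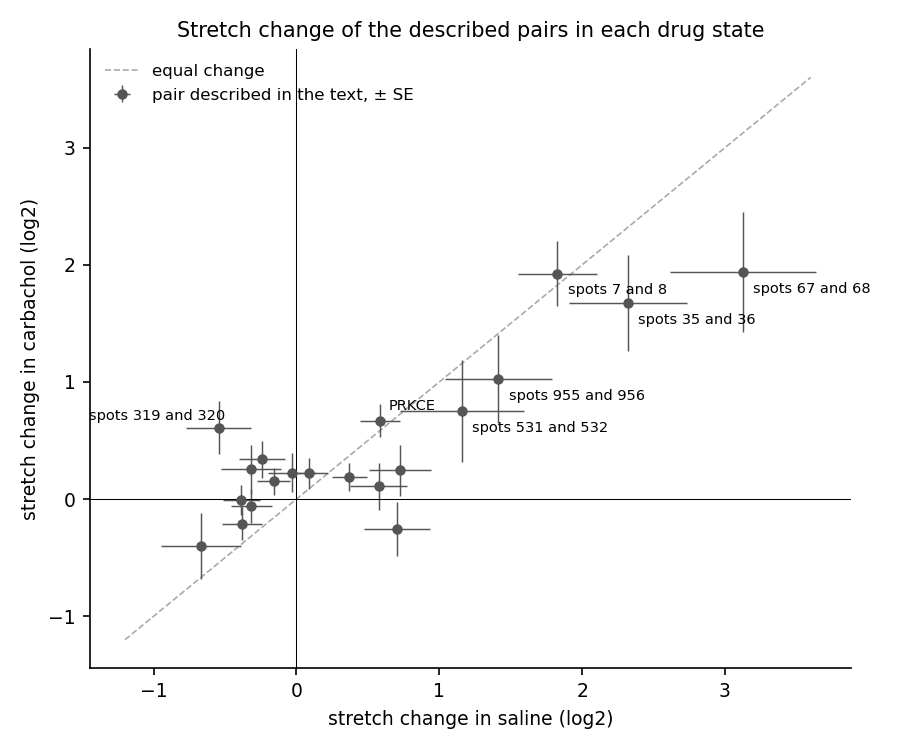
Stretch change in saline (horizontal) against stretch change in carbachol (vertical), both log2 with their SE, for the pairs and genes described in the text; the dashed line marks equal changes. Spots 7 and 8 and PRKCE lie near the line, spots 67 and 68 fall below it at 3.13 and 1.94, and spots 319 and 320 lie left of 0 and above it.

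The 3 unnamed pairs that passed kept their call in every alternative that gave them a value, 25 for spots 67 and 68 and spots 35 and 36, and 22 for spots 7 and 8. Over these the change ran from 2.66 to 3.43, from 2.07 to 2.48 and from 1.55 to 2.10. A sign-flip permutation test over animals cannot go below 0.0625 with 5 animals or 0.125 with 4. Its exact two-sided p was 0.0625 for spots 67 and 68, spots 35 and 36 and PRKCE, and 0.125 for spots 7 and 8, the smallest values it can give. Pairs that did not pass, such as spots 735 and 736 and spots 127 and 128, also gave 0.0625. The permutation test therefore does not set the features that passed apart.

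**Figure D5:**
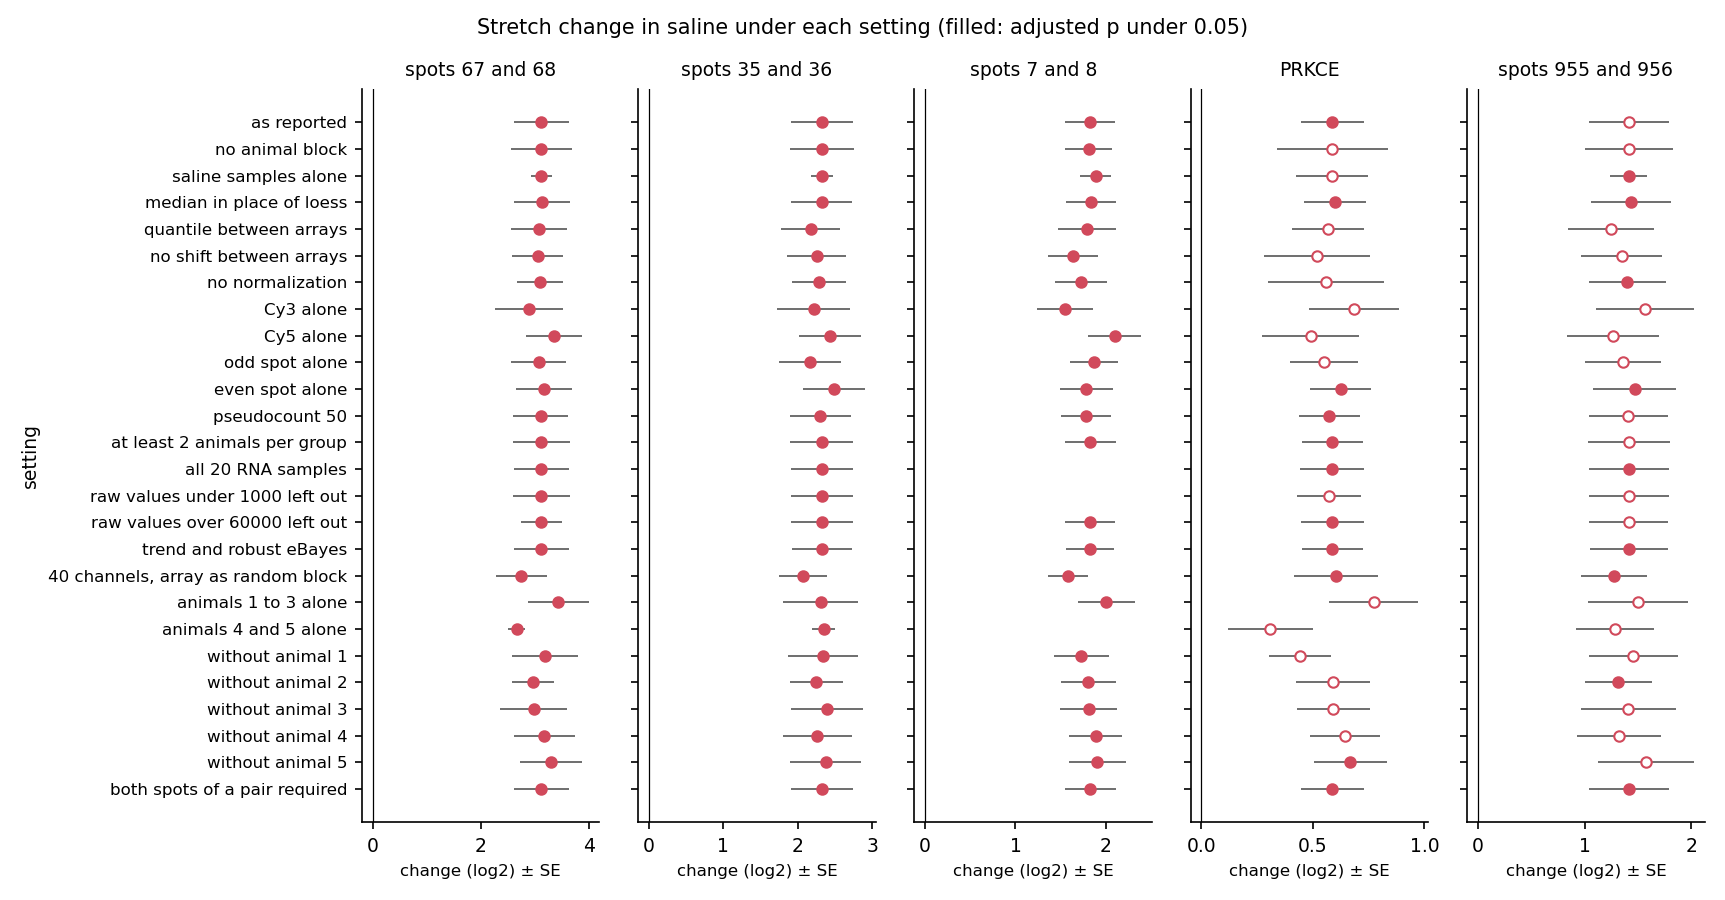
Stretch change in saline (log2 ± SE, horizontal) of 5 features as reported and under each of 25 alternative settings (rows), filled where the adjusted limma p was under 0.05 and open where it was not. The 3 unnamed pairs at left are filled throughout, PRKCE is open in 15 alternatives, and spots 955 and 956 are filled in 9; a missing point had no value under that setting.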

How the data were processed

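The deposited values are linear spot intensity readings, 1 column per dye channel, for 1040 spots. Per the labels' protocols, amplified RNA carried amino allyl groups to which the dyes were bound, and foreign control transcripts had been added. No source used here states the scanner, the background treatment or why 58.0% of the saline values are blank. Groups and animals came from the titles. Intensities were taken to log2, corrected within each array by loess (span 0.4, 4 iterations), and centred between arrays on the 193 spots that every array measured. The mean of duplicate spots was used, or the single spot where its neighbour was blank, and then the mean of both labellings, each of which was required. limma 3.58.1 (lmFit, eBayes; R 4.3.3, statmod 1.5.0) was fitted to all 20 RNA samples with the animal as a fixed block, with a design for each contrast so that standard errors are exact with blanks. P values are two-sided and adjusted by Benjamini-Hochberg over all 190 features; intervals are at 95%. Procedures were tested on simulated data. Python 3.11.15 and matplotlib 3.10.9 made the figures.

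The pairing comes from the series' design text, where muscle of all animals was given all treatments. The stretched and unstretched samples of an animal, as deviations from their group means, correlated at 0.551 on average (lowest 0.191), against 0.265 between animals of the same array set and -0.416 across sets; in 2 of the 5 animals these samples correlated best with each other. The labels do not say whether strips were run as separate experiments beyond the animal.

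The text names every pair that passed, every pair with a gene name, and the 5 unnamed pairs with the smallest p in each direction. The comparison, its lists and its alternatives were chosen with earlier results of these data known. Gene names come from the platform annotation, which can be old; it names 15 pairs of 14 genes, and 14 matched RefSeq by gene number. Probe sequences and genome positions were not used here.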

Additional observations from a re-analysis of the deposited data

Results flagged for a closer look

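Levels and changes of the described features were examined in 53 groups of 4 or 5 animals, and in 2 of them the gap from the lowest animal to the next exceeded Dixon's critical value, as chance alone does in about 1 of 20 groups. ITGA11 in the unstretched strip of animal 1 read 9.92, against 10.44 in the nearest of the other animals. Spots 531 and 532 in the stretched strip of animal 2 read 12.39, against 13.09 in the nearest of the others. No cause was tested for either value.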

How the results depend on the processing

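The stretch comparison in saline was run under 25 alternatives, of which 1 was added after seeing the data (both spots of a pair required). Of 475 values of single features, 15 calls were lost, all of PRKCE, 17 were gained and 0 reversed; 6 values that were not called changed sign, 4 of them of ITGA6 and 1 each of ITGA9 and BRAF. Counts for saline stayed between 3 and 5 except for 2 with raw values under 1000 left out, where 141 features were tested, and 28 (17 higher, 11 lower) in the fit of 40 channels with the array as random block, which counts both labellings of an RNA as independent. Leaving out each animal gave 3 to 4 in saline, 1 to 6 in carbachol and 0 for the interaction. Without the replicate block, 3 features passed in saline (3 of the same 4) and 1 in carbachol. In carbachol the count was 1 with quantile normalization, 1 with features complete in 20 RNA samples, 0 without raw values under 1000 (11 at an unadjusted p under 0.05 in limma), 8 in the fit of channels and 4 in animals 4 and 5 alone, where the interaction had 5. In animals 4 and 5, saline stretched and carbachol unstretched muscle shared arrays, and saline unstretched and carbachol stretched muscle shared the others. The interaction in these animals alone therefore cannot be told apart from differences between those arrays. The cause of the other shifts was not tested. The median saline change over all features ran from -0.09 to 0.06. The array sets differed in 0 features in the 14 alternatives run for that test. Signal over background is unknown, so the limit for dim spots cannot be given.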
